A study of Mus musculus with 6 samples.

Results

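ATF3 peaks of 10 integrin genes were examined in ChIP-seq peak lists of mouse bone marrow-derived macrophages (BMDMs). The genes are Itgam, Itgax, Itgal and Itgb2 of the β2 integrins and Itga4, Itga5, Itga6, Itgav, Itgb1 and Itgb3 of the β1 and αv integrins, and their peaks are those whose nearest start site in the deposited annotation belongs to one of them. This gave 33 of the 16759 peaks in the 6 lists, with 19 standard peaks and 14 KOIN-corrected peaks. Peaks were assigned to 8 of the 10 genes, and no peak in any list was assigned to Itgal or Itga6.

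Each condition was measured in a library from KO (Atf3 -/-, ATF3-deficient) and a library from WT (Atf3 +/+) macrophages, both on the C57BL/6 background. The cells had HDL at 2 mg/ml for 6 h, HDL for the same time and then CpG at 100 nM for 4 h (HDL + CpG), or medium alone (unstimulated). All were grown from marrow with M-CSF at 40 ng/ml, the WT mice being 6 to 8 weeks old with KO mice matched to them by age and sex, and chromatin was precipitated with 2.5 µg of an anti-ATF3 antibody. The 3 biological replicates named in the labels had been concatenated, so that every group is 1 pooled library, and tests compare pooled libraries, 2 within a condition and 4 between conditions, and carry counting error only, not the spread between mice.

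ATF3 is a stress-induced basic leucine zipper factor of the ATF/CREB family. Its known binding sequences are of the AP-1 and CRE types, and it is known mainly as a repressor of inflammatory genes in macrophages. HDL carries cholesterol away from tissues in the blood, and CpG DNA is the ligand of Toll-like receptor 9. Integrins are pairs of an α and a β chain that hold cells to matrix or to other cells. Macrophages use the β2 integrins to adhere to endothelium and to take up particles coated with complement, and the β1 and αv integrins to bind fibronectin, vitronectin and VCAM-1.

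A standard peak was called on the WT library alone. A KOIN-corrected peak was called on WT with KO as the control and had at least 2-fold more WT than KO tags, so that presence in this list is in part set by the WT/KO ratio. Tags are reads within a peak scaled to 10000000 per library. The KO libraries held 66061648 (HDL), 47504605 (HDL + CpG) and 75534584 reads (unstimulated), and the WT libraries 37930363, 49467421 and 37137377 reads in the same order, so that 1 KO read stands for 0.132 to 0.211 tags and 1 WT read for 0.202 to 0.269 tags. Standard peaks outside the KOIN-corrected list had a median WT/KO of 1.70 (HDL), 1.12 (HDL + CpG) and 1.49 (unstimulated), so that a ratio over 1 was common there too. These peaks are in part set apart by their own low WT/KO, and their medians are not an independent background. The promoter of Atf3, the targeted gene, had standard peaks with 12.11, 7.79 and 9.66 KO tags, against 21.88, 15.36 and 16.69 WT tags in the same order. These peaks do not check the genotype, since the lists do not give the deleted part.

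Integrin peaks were most numerous with HDL, with 12 standard peaks, against 4 with HDL + CpG and 3 in unstimulated cells. With HDL, 9 of the 12 had a KOIN-corrected peak, 75.0% (Wilson 95% interval 46.8 to 91.1), against 54.9% of all 5319 standard peaks. The share was 2 of 4 with HDL + CpG, 50% (15 to 85), against 29.7% of 3790. In unstimulated cells it was 2 of 3, 66.7% (20.8 to 93.9), against 20.7% of 2779. The first 2 intervals hold the share of all peaks, and the last begins next to it and rests on 3 peaks. The intervals treat peaks as independent draws, which peaks of the same gene may not be.

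Reads of each peak were compared by a two-sided exact binomial test with Benjamini-Hochberg adjustment over all standard peaks of the condition. Standard peaks were called on WT reads, which in itself favours more WT than KO signal and smaller p-values. The p-values were not corrected for this choice of peaks. The test weighs reads against the library totals, so that a lower KO signal means fewer KO than WT tags and not always fewer KO reads, since the KO libraries with HDL and without stimulus were the deeper ones. A lower KO than WT signal at an adjusted p of at most 0.05 was found at 10 of 12 integrin peaks with HDL, against 79.5% of all peaks. With HDL + CpG this held for 3 of 4, 75% (Wilson 95% interval 30.1 to 95.4), against 40.9% of all peaks. In unstimulated cells it held for 2 of 3, 66.7% (20.8 to 93.9), against 56.2%. Both intervals hold the share of all peaks. With HDL the integrin share thus lay close to that of all peaks. The median WT/KO of the integrin peaks was 3.13 with HDL, 2.00 with HDL + CpG and 3.05 in unstimulated cells, against 2.41, 1.42 and 1.66 over all peaks. None of the 19 integrin peaks had a WT/KO under 1. Over all peaks 323 of 5319 with HDL, 938 of 3790 with HDL + CpG and 307 of 2779 in unstimulated cells had. These are minorities, and with so few integrin peaks their absence was not tested. Calling peaks on WT reads also favours a WT/KO over 1, so this absence is not a result about the integrin genes.

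**Figure D1:**
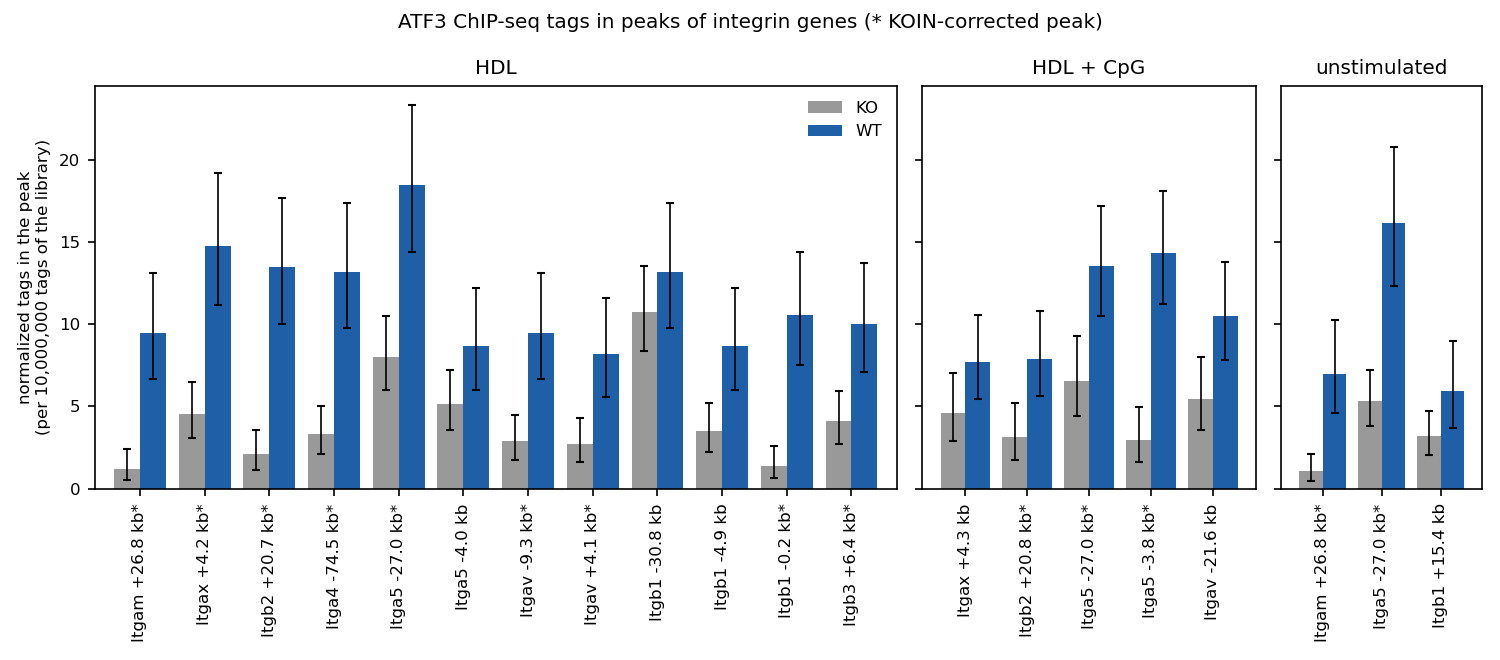
Normalized tags (y axis, per 10000000 tags of the library) in each integrin peak (x axis, gene and distance to its start site), with KO in grey and WT in blue and exact 95% Poisson intervals of the reads. In every peak the WT bar is the higher, which the calling of peaks on WT reads favours. KO tags range from 1.06 at Itgam in unstimulated cells to 10.75 at Itgb1 with HDL.

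The peaks stood at 14 sites once overlapping peaks of the conditions were merged. Of these sites 12 had a peak with HDL, 4 with HDL + CpG and 3 in unstimulated cells, against 73.0%, 51.9% and 38.1% of 7275 sites over all genes in the same order. A peak in a single condition was seen at 10 of the 14, against 58.0% of all sites, and 1 site, at Itga5, had a peak in all 3 conditions, against 21% of all sites. A site missing from a list has no tag value there, so that its signal in that condition is not known from these files. The scores of the standard integrin peaks ran from 40.73 to 96.21, and the lists end at a score of 40.

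The β2 integrins had 3 standard peaks with HDL, all inside their genes and all with a KOIN-corrected peak. Itgam encodes αM (CD11b), which with β2 forms Mac-1, a receptor for the complement fragment iC3b. Its peak lay in intron 12 of 29, 26.8 kb downstream of the start site, at chr7:135232646-135233195 (mm9). It had 1.21 KO tags, against 9.49 WT tags with HDL, and 1.06 KO tags, against 7.0 WT tags in unstimulated cells. KO signal was thus near 1 tag in both conditions, from 8 reads each. The WT/KO was 7.84 with HDL (exact 95% interval 3.58 to 19.5, exact binomial test, adjusted p = 8.51e-09) and 6.61 in unstimulated cells (2.91 to 16.9, exact adjusted p = 2.14e-06). These values stood at percentile 99.3 of all standard HDL peaks and 99.4 of the unstimulated ones, and both had a KOIN-corrected peak. With HDL + CpG no peak of either list was assigned to Itgam.

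Itgb2 encodes β2, the chain shared by αL, αM and αX. Its peak with HDL lay over exon 8 of 16, 20.7 kb downstream of the start site, at chr10:77013377-77014250. It had 2.12 KO tags, against 13.45 WT tags, a WT/KO of 6.34 (3.46 to 12.4, exact binomial test, adjusted p = 8.40e-11). With HDL + CpG the same place was listed as a KOIN-corrected peak at chr10:77013527-77014227, with no standard peak and with 3.16 KO tags, against 7.88 WT tags. Its WT/KO of 2.50 (1.35 to 4.88) was lower than with HDL, and the difference was not tested, since it needs a standard peak in both conditions.

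Itgax encodes αX (CD11c), the α chain of complement receptor 4. Its peak with HDL lay over exon 8 of 30, 4.21 kb downstream of the start site, at chr7:135276801-135277777. It had 4.54 KO tags, against 14.76 WT tags, a WT/KO of 3.25 (2.05 to 5.25, exact binomial test, adjusted p = 5.68e-07). With HDL + CpG the standard peak at chr7:135277099-135277619, in intron 8, had 4.63 KO tags, against 7.68 WT tags. There the WT/KO was 1.66 (0.956 to 2.94, exact adjusted p = 0.135), and no KOIN-corrected peak was listed. The HDL + CpG peak was the narrower, 521 bp against 977 bp with HDL. Per kb of peak it had 8.89 KO tags, against 4.65 with HDL, and 14.7 WT tags, against 15.1 with HDL. Itgal, which encodes αL of LFA-1, lies on the same chromosome at 134439774 to 134478651, and no peak in any list came within 10 kb of it.

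The 3 sites are shown by the 201 bases around the centre of their HDL peak, on the plus strand of the reference, with AP-1 (TGAGTCA), CRE (TGACGTCA) and CHOP-C/EBP (TGATGCAA) sequences of either strand in capitals.
Itgam intron 12, chr7:135232820-135233020: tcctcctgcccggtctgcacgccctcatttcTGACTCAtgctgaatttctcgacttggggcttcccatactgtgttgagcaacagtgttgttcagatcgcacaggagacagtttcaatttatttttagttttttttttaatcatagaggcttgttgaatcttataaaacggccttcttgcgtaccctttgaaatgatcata
Itgax exon 8, chr7:135277189-135277389: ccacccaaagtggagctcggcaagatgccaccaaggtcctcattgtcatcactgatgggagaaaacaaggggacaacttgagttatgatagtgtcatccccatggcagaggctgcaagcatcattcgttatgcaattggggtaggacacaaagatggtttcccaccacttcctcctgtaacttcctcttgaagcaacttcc
Itgb2 exon 8, chr10:77013713-77013913: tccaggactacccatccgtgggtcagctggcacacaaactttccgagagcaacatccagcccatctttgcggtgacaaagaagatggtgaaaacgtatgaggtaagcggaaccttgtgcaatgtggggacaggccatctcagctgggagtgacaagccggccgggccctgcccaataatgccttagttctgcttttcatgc
The Itgam window held 1 AP-1 sequence, on the minus strand and 66 bp upstream of the peak centre, and the Itgax and Itgb2 windows held none of the 3 sequences. The deposited annotation places the centre of the unstimulated Itgam peak on a LINE repeat (L1M2), and that of the HDL peak in the intron.

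**Figure D2:**
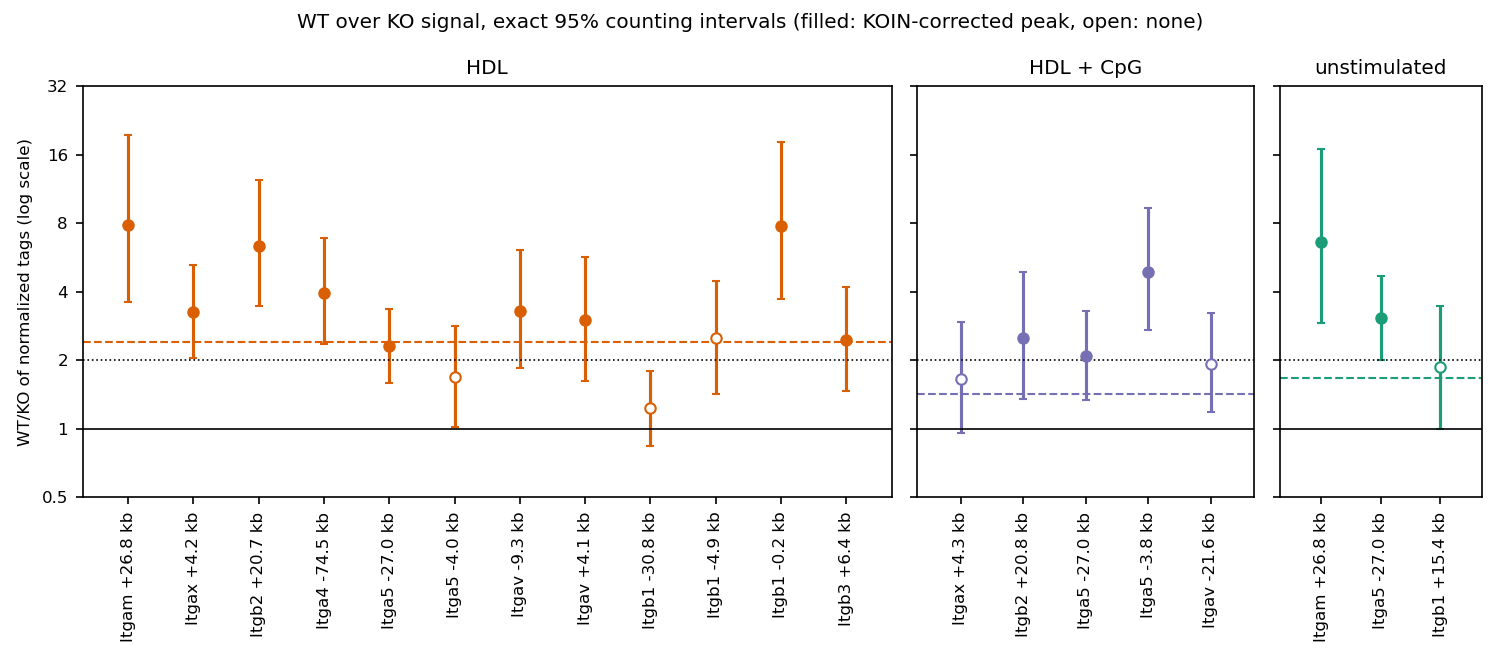
WT over KO of normalized tags (y axis, log scale) for each integrin peak (x axis) with exact 95% counting intervals, filled where a KOIN-corrected peak was present. The dashed line is the median of all standard peaks of the condition (2.41, 1.42 and 1.66), the solid line is at 1 and the dotted line at 2. With HDL the peaks of Itgam, Itgb2 and Itgb1 at the promoter stand highest, between 6.34 and 7.84.

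Itgb1 encodes β1, the partner of α4, α5 and α6, and had the most standard peaks with HDL, 3 in number. The peak at its promoter, 0.211 kb upstream of the start site at chr8:131209012-131209675, had 1.36 KO tags, against 10.55 WT tags. The WT/KO was 7.74 (3.70 to 18.1, exact binomial test, adjusted p = 1.36e-09), at percentile 99.3 of all HDL peaks, and a KOIN-corrected peak was present. It was the sole promoter peak among the 19. The peak 4.90 kb upstream had 3.48 KO tags, against 8.70 WT tags, a WT/KO of 2.50 (1.42 to 4.46, exact adjusted p = 0.00131). It had no KOIN-corrected peak despite a ratio over 2, as 624 of the 3543 HDL peaks with a lower KO signal and such a ratio had none. The peak 30.8 kb upstream had 10.75 KO tags, the most of any integrin peak, against 13.18 WT tags, a WT/KO of 1.23 (0.837 to 1.79, exact adjusted p = 0.326). In unstimulated cells a peak in intron 1, 15.4 kb downstream at chr8:131224773-131225215, had 3.18 KO tags, against 5.92 WT tags (WT/KO 1.86, 0.997 to 3.47, exact adjusted p = 0.0674). Neither of these last peaks was KOIN-corrected, and no promoter peak was listed for Itgb1 in the other conditions.

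Itga5 encodes α5 of the fibronectin receptor. A site 27.0 kb upstream, at chr15:103223715-103224682 with HDL, carried a standard and a KOIN-corrected peak in all 3 conditions. It had 8.02 (HDL), 6.53 (HDL + CpG) and 5.30 KO tags (unstimulated), against 18.45, 13.54 and 16.16 WT tags in the same order. The WT/KO was 2.30 with HDL (1.59 to 3.35, exact binomial test, adjusted p = 1.64e-05), 2.08 with HDL + CpG (1.34 to 3.29, exact adjusted p = 0.00205) and 3.05 in unstimulated cells (2.01 to 4.67, exact adjusted p = 4.56e-07). The 3 intervals overlap. The WT signal of this site with HDL was the highest of any integrin peak, and its KO signal was among the highest too. The nearest other start site, of Gtsf1, was 36.7 kb away.

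A second Itga5 site lay 3.85 kb upstream with HDL + CpG, at chr15:103200598-103201455, and 4.00 kb upstream with HDL, at chr15:103200876-103201483. With HDL + CpG it had 2.95 KO tags, against 14.35 WT tags, a WT/KO of 4.87 (2.72 to 9.36, exact binomial test, adjusted p = 2.22e-08), and a KOIN-corrected peak. With HDL it had 5.15 KO tags, against 8.70 WT tags, a WT/KO of 1.69 (1.01 to 2.81, exact adjusted p = 0.0513), and no KOIN-corrected peak. The peak covered 858 bp with HDL + CpG and 608 bp with HDL. Per kb of peak it had 3.44 KO tags with HDL + CpG, against 8.47 with HDL, and 16.7 WT tags, against 14.3 with HDL. These values depend on the unequal widths. Which library differed more between the conditions can thus not be told from them. No peak was listed there in unstimulated cells.

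Itgav encodes αv, which with β3 forms the vitronectin receptor and takes part in the uptake of apoptotic cells. With HDL it had a peak 9.35 kb upstream, at chr2:83554851-83555560, with 2.88 KO tags, against 9.49 WT tags (WT/KO 3.30, 1.84 to 6.09, exact binomial test, adjusted p = 4.43e-05). A further peak lay in intron 1 of 29, 4.15 kb downstream at chr2:83568373-83569027, with 2.72 KO tags, against 8.17 WT tags (WT/KO 3.0, 1.63 to 5.69, exact adjusted p = 3.34e-04). Both were KOIN-corrected. With HDL + CpG another peak, 21.6 kb upstream at chr2:83542600-83543331 and on a (CA)n simple repeat, had 5.47 KO tags, against 10.51 WT tags, a WT/KO of 1.92 (1.18 to 3.2, exact adjusted p = 0.0169), and was not KOIN-corrected. The HDL and HDL + CpG peaks of Itgav thus shared no site.

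Itgb3 encodes β3, and its peak with HDL lay in intron 1 of 14, 6.41 kb downstream at chr11:104475328-104476124. It had 4.09 KO tags, against 10.02 WT tags, a WT/KO of 2.45 (1.46 to 4.17, exact binomial test, adjusted p = 7.78e-04), close to the HDL median of 2.41, and a KOIN-corrected peak. Itga4 encodes α4 of VLA-4, the receptor for VCAM-1. Its peak with HDL was the most distant of all, 74.5 kb upstream at chr2:79020712-79021525 on an LTR repeat (MLT1J), and Itga4 had the nearest start site by far, the next one being 276 kb away. It had 3.33 KO tags, against 13.18 WT tags, a WT/KO of 3.96 (2.35 to 6.86, exact adjusted p = 1.31e-07), and a KOIN-corrected peak. Neither gene had a peak in the other conditions. Itga6, which encodes the laminin-binding α6, had no peak within 10 kb of its 113 kb gene body in any list.

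The windows of these genes, 201 bases around the peak centre on the plus strand with the same sequences in capitals, are given for the site that was KOIN-corrected in several conditions (Itga5 at 27.0 kb) and otherwise for the highest WT/KO of each gene. The Itga5 window at 3.85 kb was added after its values were seen, since the comparison of conditions turns on it.
Itga4 upstream, HDL, chr2:79021018-79021218: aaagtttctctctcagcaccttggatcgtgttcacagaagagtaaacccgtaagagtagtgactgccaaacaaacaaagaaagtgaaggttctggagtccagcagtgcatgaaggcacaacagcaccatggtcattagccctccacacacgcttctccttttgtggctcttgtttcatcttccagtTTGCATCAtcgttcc
Itga5 upstream at 3.85 kb, HDL + CpG, chr15:103200926-103201126: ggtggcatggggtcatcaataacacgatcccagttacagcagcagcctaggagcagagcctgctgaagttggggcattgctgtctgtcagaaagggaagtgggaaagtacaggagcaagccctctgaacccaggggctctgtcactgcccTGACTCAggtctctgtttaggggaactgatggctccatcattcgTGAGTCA
Itga5 upstream at 27.0 kb, unstimulated, chr15:103224090-103224290: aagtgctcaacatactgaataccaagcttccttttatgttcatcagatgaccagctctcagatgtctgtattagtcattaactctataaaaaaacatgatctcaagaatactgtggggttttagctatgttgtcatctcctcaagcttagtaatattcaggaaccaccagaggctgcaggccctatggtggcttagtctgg
Itgav upstream, HDL, chr2:83555105-83555305: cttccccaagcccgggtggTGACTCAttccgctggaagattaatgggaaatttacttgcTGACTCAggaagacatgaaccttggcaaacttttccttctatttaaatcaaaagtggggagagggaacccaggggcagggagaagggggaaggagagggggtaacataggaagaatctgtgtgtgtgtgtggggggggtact
Itgb1 promoter, HDL, chr8:131209243-131209443: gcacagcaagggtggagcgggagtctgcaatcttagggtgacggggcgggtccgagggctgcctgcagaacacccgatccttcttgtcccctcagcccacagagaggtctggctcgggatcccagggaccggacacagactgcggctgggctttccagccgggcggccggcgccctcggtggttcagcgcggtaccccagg
Itgb3 intron 1, HDL, chr11:104475626-104475826: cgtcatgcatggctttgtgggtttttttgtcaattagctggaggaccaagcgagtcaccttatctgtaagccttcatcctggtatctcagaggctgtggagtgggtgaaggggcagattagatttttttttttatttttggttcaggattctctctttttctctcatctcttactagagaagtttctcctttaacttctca
The windows at Itgav and at Itga5 at 3.85 kb held 2 AP-1 sequences each, and that at Itga4 held 1 CHOP-C/EBP sequence on the minus strand. None of the 3 sequences stood in the windows at the Itgb1 promoter, which was 68.7% G and C, at Itgb3 or at Itga5 at 27.0 kb.

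**Figure D3:**
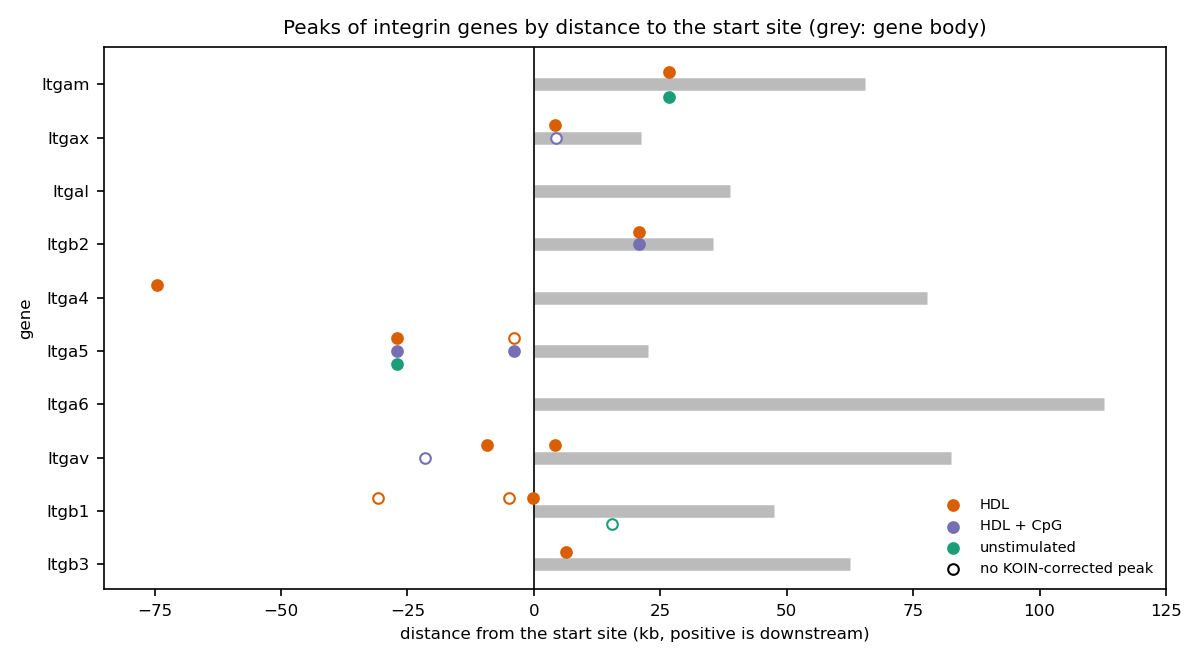
Distance of each integrin peak from the start site of its gene (x axis, kb, positive downstream) by gene (y axis), coloured by condition, with open circles for peaks without a KOIN-corrected peak and grey bars for gene bodies. Peaks of Itgam, Itgax, Itgb2 and Itgb3 lie inside the gene, those of Itga4 and Itga5 upstream, and Itgal and Itga6 have none.

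Ordered by WT/KO with HDL, Itgam (7.84), the Itgb1 promoter (7.74) and Itgb2 (6.34) came first, followed by Itga4 (3.96), Itgav upstream (3.30), Itgax (3.25) and Itgav in intron 1 (3.0). Itgb1 at 4.90 kb (2.50), Itgb3 (2.45), Itga5 at 27.0 kb (2.30), Itga5 at 4.00 kb (1.69) and Itgb1 at 30.8 kb (1.23) came last. The counting intervals of neighbours in this order overlap. The lower bounds of the first 3 (3.58, 3.70 and 3.46) lay above the upper bounds of the last 3 (3.35, 2.81 and 1.79). The order was made from these same ratios, which favours such a gap between its ends, and the gap was not tested. The first 3 also had the fewest KO tags, between 1.21 and 2.12, while their WT tags, between 9.49 and 13.45, lay within the range of the other HDL peaks (8.17 to 18.45). KO tags are the divisor of the ratio, so a high place in the order in itself favours few KO tags.

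The libraries were also scaled to the median WT/KO of peaks without a KOIN-corrected peak, a set chosen in part by its own ratio. With this scaling, 5 of the 10 integrin peaks with HDL still had a lower KO than WT signal by the exact binomial test. These were Itgam (scaled WT/KO 4.62), the Itgb1 promoter (4.56), Itgb2 (3.74), Itga4 (2.33) and Itgax (1.92), with adjusted p between 2.70e-05 and 0.0132. The calls at Itga5 at 27.0 kb, both Itgav peaks, Itgb1 at 4.90 kb and Itgb3 were lost, with adjusted p between 0.0545 and 0.285. With HDL + CpG the Itgav peak was lost (exact adjusted p = 0.0547) and both Itga5 peaks were not, and in unstimulated cells no call was lost.

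**Figure D4:**
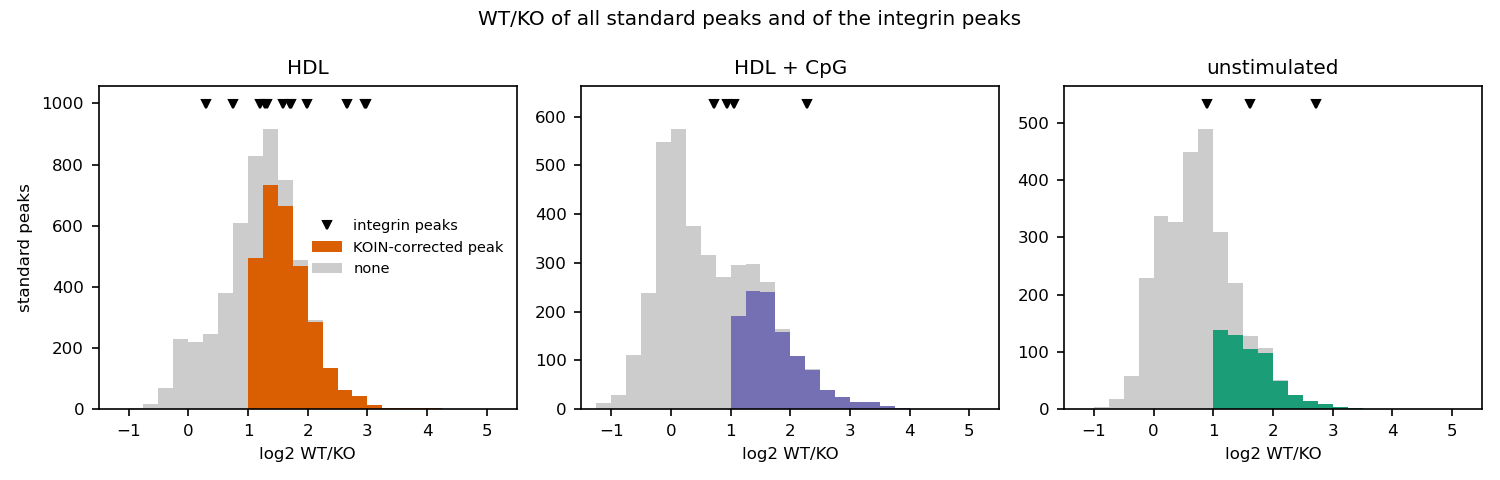
Standard peaks (y axis, number) by log2 WT/KO (x axis) in each condition, coloured where a KOIN-corrected peak was present and grey where not, with black triangles for the integrin peaks. A peak without KO reads cannot be drawn and is left out. All integrin triangles lie above 0, as do most of all standard peaks, which were called on WT reads. With HDL most triangles lie among the coloured bars.

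To ask whether the WT/KO at a site differed between conditions, overlapping standard peaks were compared by a two-sided exact conditional test of the ratio of the ratios, adjusted over all overlapping peaks. For HDL against unstimulated cells, 21.7% of 2011 peaks differed, 384 with a higher and 52 with a lower WT/KO, and the median fold was 1.26. Neither integrin site present in both conditions passed. At Itgam the fold was 1.19 (95% interval 0.337 to 4.14, exact adjusted p = 0.914), and at Itga5 at 27.0 kb it was 0.754 (0.425 to 1.33, exact adjusted p = 0.567). For HDL + CpG against unstimulated cells, 27.6% of 1749 peaks differed, 44 higher and 439 lower, with a median fold of 0.760. The single integrin site, Itga5 at 27.0 kb, had a fold of 0.680 (0.364 to 1.27, exact adjusted p = 0.402).

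For HDL + CpG against HDL, 35.8% of 2394 peaks differed, of which 65 had a higher and 793 a lower WT/KO, with a median fold of 0.709. The Itga5 site at 3.85 kb was among the 65, with a fold of 2.88 (1.29 to 6.58, exact conditional test, adjusted p = 0.0172). At Itga5 at 27.0 kb the fold was 0.902 (0.50 to 1.64, exact adjusted p = 0.873), and at Itgax it was 0.510 (0.243 to 1.08, exact adjusted p = 0.149). All 5 intervals that hold 1 also reach folds of 0.50 or less, so that these data do not show the ratios to be alike. With the libraries scaled as above, the fold at 3.85 kb was 4.37 (exact adjusted p = 6.37e-04). The 6 comparisons share libraries and are not independent.

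**Figure D5:**
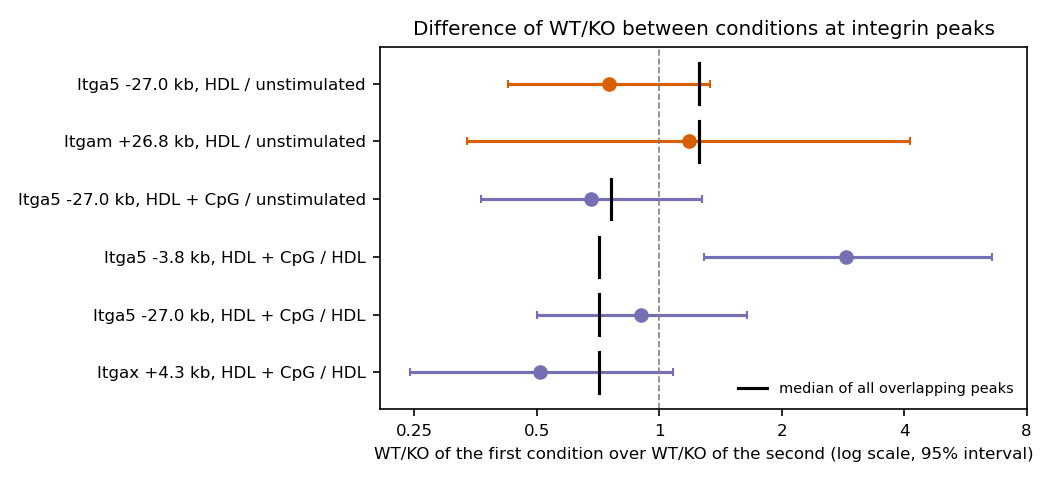
WT/KO of the first condition over that of the second (x axis, log scale) at each integrin site present in both (y axis), with exact 95% intervals and a black bar at the median of all overlapping peaks. The Itga5 site at 3.85 kb, at 2.88, has an interval above 1, and its bar is at 0.709.

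An AP-1 sequence stood within 100 bp of the centre at 3 of 12 integrin peaks with HDL (Itgam, Itga5 at 4.00 kb and Itgav upstream), against 16.4% of all standard peaks. With HDL + CpG it did at 1 of 4 (Itga5 at 3.85 kb), against 16.6%, and in unstimulated cells at 2 of 3 (Itgam and Itgb1 in intron 1), against 9.36%. The AP-1 pair at Itga5 lay 53 and 97 bp downstream of the centre with HDL + CpG and 100 and 56 bp upstream with HDL, as coordinates increase. A CHOP-C/EBP sequence was found within 100 bp of the centre at 1 HDL peak, that of Itga4, against 3.03% of all HDL peaks. Further from the centre it also stood in the HDL peaks of Itgav in intron 1 and of Itgb1 at 30.8 kb. The Itgav peak held an AP-1 sequence there too. No integrin peak held the CRE sequence, which 0.696% of all HDL peaks held within 100 bp of the centre. The searches counted exact matches on both strands, and a match is not shown to be bound.

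In other features the HDL integrin peaks had a median distance to the start site of 7.88 kb, against 33.0 kb over all standard peaks, and 1 of 12 had its centre on a repeat, against 47.0%. Their median width was 754 bp, against 763 bp, their median of WT tags 10.29, against 11.34, and their median G and C content 44.8%, against 45.5%. In width, height and base content they were thus close to all peaks. With HDL + CpG 1 of 4 and in unstimulated cells 2 of 3 lay on a repeat, against 50.1% and 60.6% of all peaks.

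Of 16 other integrin genes, 3 had a standard peak. With HDL, 2 of their 4 peaks were KOIN-corrected, against 54.9% of all peaks, and 4 of 4 had a lower KO than WT signal, against 79.5%. With HDL + CpG the counts were 0 of 2, against 29.7%, and 1 of 2, against 40.9%, and in unstimulated cells 0 of 2 and 0 of 2, against 20.7% and 56.2%. Itgad encodes αD, a further partner of β2, and lies next to Itgax. Its intron peak had 8.33 KO tags, against 16.61 WT tags with HDL (WT/KO 1.99), and 7.41 KO tags, against 8.62 WT tags in unstimulated cells (1.16), and was KOIN-corrected in neither. Itgb5, which encodes β5, a partner of αv, had a KOIN-corrected peak 7.18 kb downstream with 3.33 KO tags, against 12.65 WT tags with HDL (WT/KO 3.80). The peak of Itga1 lay 586 kb from its start site, which ties it to the gene by distance alone, and its WT/KO was 3.28 with HDL, 0.544 with HDL + CpG and 0.970 in unstimulated cells.

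Of 27 genes of integrin ligands and counter-receptors, 7 had standard peaks with HDL. KOIN-corrected peaks were found at 8 of 10 with HDL, 1 of 5 with HDL + CpG and 0 of 6 in unstimulated cells, against 54.9%, 29.7% and 20.7% of all peaks. Some of the 8 had a high KO signal too, as Jam3 (55.4 KO tags, against 177.43 WT tags) and Lama1 in intron 5 (77.96, against 225.68). At these 2 places the WT/KO was 1.07 and 1.00 with HDL + CpG and 1.73 and 1.67 in unstimulated cells, with no KOIN-corrected peak. A lower KO than WT signal was found at 8 of 10, 1 of 5 and 4 of 6, against 79.5%, 40.9% and 56.2%, and in the 4 unstimulated peaks the KO reads were not fewer than the WT reads before scaling by depth. Spp1, which encodes osteopontin, a ligand of αv integrins, had 1.82 KO tags, against 15.03 WT tags 38.5 kb upstream with HDL (WT/KO 8.27, 4.39 to 16.9). At the same place in unstimulated cells it had 7.68 KO tags, against 9.69 WT tags (1.26, 0.809 to 1.95). Vcam1, the ligand of α4β1, had a KOIN-corrected peak 60.2 kb upstream with HDL, with 4.54 KO tags, against 14.24 WT tags (WT/KO 3.13), and no standard peak in the other conditions.

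Of 50 genes of integrin activation and adhesion signalling, 19 had standard peaks with HDL, 14 with HDL + CpG and 10 in unstimulated cells. KOIN-corrected peaks were found at 21 of 31, 14 of 27 and 6 of 13 in the same order, against 54.9%, 29.7% and 20.7% of all peaks. A lower KO than WT signal was found at 27 of 31, 19 of 27 and 11 of 13, against 79.5%, 40.9% and 56.2%. In 2 of the 27 HDL calls and 5 of the 11 unstimulated calls the KO reads were not fewer than the WT reads before scaling by depth. The median WT/KO was 2.71 with HDL, 2.22 with HDL + CpG and 2.03 in unstimulated cells, against 2.41, 1.42 and 1.66 over all peaks. Apbb1ip encodes RIAM, which links Rap1 to talin, and its intron peak 48.3 kb downstream had 1.97 KO tags, against 12.65 WT tags with HDL (6.43). Tln1 encodes talin, which binds the tails of β chains, and its intron peak 2.18 kb downstream had 3.48 KO tags, against 9.23 WT tags with HDL (2.65). Src, a kinase of adhesion sites, had an intron peak in all 3 conditions, with 5.30 (HDL), 2.74 (HDL + CpG) and 4.24 KO tags (unstimulated), against 15.03, 12.74 and 8.62 WT tags in the same order, and was KOIN-corrected with HDL and with HDL + CpG. Jam3, Lama1, Spp1, Vcam1, Apbb1ip, Tln1 and Src were chosen for naming after their values were seen.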

How the data were processed

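ATF3 ChIP-seq of KO and WT BMDMs was measured in 6 pooled libraries, 1 per genotype and condition. Per the labels and the study's methods, the authors concatenated 3 biological replicates, aligned them to mm9 with multi-mappable reads at their best position, and used MACS to find peaks and HOMER to assign each to the nearest RefSeq start site. Versions in the submitters' processing notes are MACS 1.4.2, HOMER 4.3, CASAVA 1.8 and Bowtie 0.12.8. Each deposited peak carries the score that MACS gave it, and the deposited signal counts the tags within it, scaled by the authors to 10000000 per library. KOIN-corrected peaks were called by the authors with KO as control and left out where WT/KO was under 2. The lists also hold the authors' own WT to KO fold, which was not used.

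Reads per peak were recovered from the tags and the library totals in the headers, with a rounding error of at most 0.005 tags. Ratios have exact 95% intervals, which cover the counting error of reads only. Reads without molecular identifiers are not independent molecules, so these intervals and the p-values may be too narrow. Shares have Wilson 95% intervals over the number of peaks. These treat peaks as independent draws, which peaks of the same gene may not be. The exact binomial and exact conditional tests were two-sided, with Benjamini-Hochberg adjustment over all standard or all overlapping peaks. They were checked on simulated data, in which reads were drawn with no choice of peaks by WT signal. Peaks were matched by an overlap of at least 1 bp. No peak of the 6 lists reached beyond a chromosome of NCBIM37, the assembly of mm9, which gave the sequences, and gene bodies are those of GENCODE vM1. All 10 genes are named, with every KOIN-corrected or promoter peak and the standard peak nearest each start site described in full. The members and gene lists were chosen with earlier results of these data known. Alternatives were score minimums of 60 and 100, distance limits of 100 and 10 kb, no repeats, overlaps of 50%, scaling to peaks without a KOIN-corrected peak, a WT/KO of at least 2, an adjusted p of 0.01, a pseudocount of 1 tag, tags within the KOIN-corrected peak, and motif windows of 50 bp or the whole peak. Peaks of KO libraries were not used here. Software was scipy 1.17.1, numpy 2.4.6, pandas 2.3.3 and matplotlib 3.10.9 under Python 3.11.15.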

Additional observations from a re-analysis of the deposited data

Results flagged for a closer look

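The WT/KO of the Itga5 site 3.85 kb upstream of the start site differed between stimulated conditions, being 2.88 times as high with HDL + CpG as with HDL (95% interval 1.29 to 6.58, exact conditional test, adjusted p = 0.0172 over 2394 overlapping peaks). It had 2.95 KO tags, against 14.35 WT tags with HDL + CpG, and 5.15 KO tags, against 8.70 WT tags with HDL, each from 1 pooled library per genotype. The HDL + CpG peak covered 858 bp and the HDL peak 608 bp, with 3.44 KO tags per kb against 8.47 with HDL and 16.7 WT tags per kb against 14.3 with HDL, and the part of the peak ends in this difference was not tested. The Itga5 site 27.0 kb upstream, measured in the same libraries, had a fold of 0.902 (0.50 to 1.64, exact adjusted p = 0.873).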

How the results depend on the processing

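No paired analysis was possible because each genotype and condition has 1 pooled library, which also left no replicate to leave out. The numbers of integrin peaks with a KOIN-corrected peak (9 with HDL, 2 with HDL + CpG, 2 unstimulated) and with a lower KO than WT signal (10, 3 and 2) depended most on the score. A score of at least 60 left 5 and 5 with HDL and 1 and 1 in unstimulated cells, and a score of at least 100 left 0 in every condition, since no standard integrin peak scored that high. Within 10 kb of the start site, 5 KOIN-corrected peaks were left with HDL, 1 with HDL + CpG and 0 in unstimulated cells, and 7, 1 and 0 peaks with a lower KO signal. With HDL both distance limits, which adjust over fewer peaks, added the call at Itga5 at 4.00 kb, with 11 of 12 called within 100 kb and 7 of 7 within 10 kb. Without peaks on a repeat, 1 and 1 were left in unstimulated cells. Scaling the libraries to peaks without a KOIN-corrected peak left 5 peaks with a lower KO signal with HDL, and turned the fold at Itga5 at 27.0 kb between HDL + CpG and HDL to 1.37 (exact adjusted p = 0.466), a site that passed the threshold under neither scaling. With HDL it moved 6 ratios outside their intervals, to 2.33 at Itga4, 1.92 at Itgax, 1.44 at Itgb3, 1.36 and 0.996 at Itga5 (27.0 and 4.00 kb) and 0.723 at Itgb1 at 30.8 kb. A motif within 50 bp was left at 1, 0 and 0 peaks. With the whole peak searched, 6 of 12 HDL peaks held a motif, against 4 within 100 bp of the centre. Depth limits the ratios of low peaks, and 8 KO reads at Itgam bound its ratio only to between 3.58 and 19.5.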
